A study of Mus musculus with 6 samples.

Results

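The Wnt ligands Wnt3, Wnt3a, Wnt5a, Wnt5b and Wnt8a and the Wnt feedback and target genes Axin2, Lef1, Sp5, Lgr5 and Nkd1 were followed through endoderm differentiation of mouse embryonic stem cells (ESCs). These 10 genes were taken by their symbols from gene tables that hold 24054 genes, and all 10 were found. The cells were of a single double knock-in (DKI) line, heterozygous for Foxa2-Venus and homozygous for Sox17-Cherry, in which fluorescent proteins report the endoderm transcription factors Foxa2 and Sox17. RNA-seq was performed on 3 sorted populations with 2 independent replicates each. Undifferentiated d0 cells were negative for both reporters, day 3 cells (d3F) were positive for Foxa2-Venus and negative for Sox17-Cherry, and day 5 cells (d5FS) were positive for both. For the later populations the labels give a medium with 1 ng/ml Wnt3a and 10 ng/ml Activin A, renewed daily. Time, exposure to both factors and reporter sort therefore changed together and cannot be told apart. The study kept undifferentiated ESCs in a medium with serum and the cytokine LIF, which its differentiation medium does not list. Comparisons with d0 thus also carry a change of medium. The added Wnt3a is a protein, so it does not appear as Wnt3a mRNA. No day 3 or day 5 population without added Wnt3a was analysed here.

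Wnt proteins are lipid-modified secreted signals that bind Frizzled receptors with the co-receptors Lrp5 and Lrp6. Binding stops a cytoplasmic complex of Axin, Apc and kinases from degrading beta-catenin, which then enters the nucleus and activates genes together with factors of the Tcf/Lef family. Several of those genes feed back on the pathway, and Wnt3 and beta-catenin are required in the mouse embryo for the primitive streak, from which mesendoderm and definitive endoderm arise.

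Total expected counts, the numbers of read pairs that the program RSEM assigned to genes, lay between 16457700 and 22768700 per sample. Of the 10 genes, 9 had enough counts to be tested, and Wnt3a did not. Marker lists were read as sums. Foxa2 and Sox17 are among the definitive endoderm markers, and the cells were sorted on their reporters. A rise of that sum was therefore partly fixed by the sort. The summed level of 7 definitive endoderm markers, as transcript abundance scaled for length and library size (TPM, on a common scale for all samples), was 1.67 and 1.96 in d0, then 39.2 and 55.2 in d3F and 129 and 231 in d5FS, and that of 6 ESC markers was 401 and 780, 288 and 151, and 32.6 and 26.4. The sum of 6 mesendoderm markers, which also hold Foxa2, was 6.23 and 2.31 TPM in d0, then 95.7 and 80.4 in d3F and 55.6 and 72.6 in d5FS. From d3F to d5FS T and Mixl1 were called lower, beside 0.461% of all genes, and Eomes, Gsc, Foxa2 and Lhx1 were not called. This list thus set d0 apart more clearly than it set d3F apart from d5FS. Visceral endoderm shares Foxa2 and Sox17 with definitive endoderm. Of its 6 markers 4 were called from d0 to d5FS, all higher (Ttr, Afp, Apoa4 and Cubn), beside 12.4% of all genes called higher. Afp was at 6.13 and 25.3 CPM in d5FS. The summed level of all 6 was 18.7 and 53.0 TPM in d0, then 11.3 and 10.2 in d3F and 22.8 and 41.4 in d5FS. This sum did not follow the 4 called markers from d0 to d5FS. It also holds Amn and Rhox5, which were not called there (log2 fold changes of 0.82 and -0.79). The summed level of 6 mesoderm markers was 0.357 and 0.594 TPM in d0, then 1.97 and 6.31 in d3F and 0.725 and 0.681 in d5FS. That of 6 neuroectoderm markers was 14.7 and 1.92 TPM in d0, then 15.9 and 11.3 in d3F and 7.70 and 3.68 in d5FS, with d0 replicate 1 above d0 replicate 2 as for Wnt3 and Sp5. The part of such cells in the results was not tested. The d0 replicates stood apart from each other. In CPM, which scales counts to library size, replicate 1 held less Nanog than replicate 2 (73.9 against 305) and more T, the primitive streak gene Brachyury (19.8 against 5.13). The accounts of the 10 genes and of the pathway lists therefore say which calls were lost or gained when a d0 library was left out. In bulk samples, fewer cells of a type and less RNA per cell cannot be told apart.

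The genes lie on 8 chromosomes (GRCm38, GENCODE M21). Wnt3 (chr11:103774150-103817957, plus strand), Wnt3a (chr11:59248033-59290752, minus) and Axin2 (chr11:108920349-108950783, plus) share chromosome 11. Wnt5a is at chr14:28504750-28527448 (plus), Wnt5b at chr6:119432531-119544347 (minus) and Wnt8a at chr18:34542313-34548273 (plus). Lef1 is at chr3:131110471-131224356 (plus), Sp5 at chr2:70474923-70477729 (plus), Lgr5 at chr10:115450311-115587780 (minus) and Nkd1 at chr8:88521354-88594884 (plus). Antisense genes share 358 exon bases with Wnt5a, 209 with Axin2 and 1208 with Lef1. The library kit does not mark strand, so reads from these stretches cannot be assigned to either gene, and the antisense genes were not analysed here.

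The upstream sequences were searched for 7-letter words of the kind that Tcf/Lef factors bind, because these factors carry the Wnt signal to the target genes. Each word was CTTTG followed by A or T and then again by A or T, on both strands, in the 250 bases before each RefSeq start (GRCm38.p6). RefSeq promoter entries of 7 of the 10 genes were searched, 12 entries in all. No entry of Lgr5, Wnt5a or Wnt8a was among them, so their upstream sequences were not examined. Whether RefSeq holds entries for these genes is not stated here. At least 1 word was in 3 of the 12 entries, and 14.8% of all 32851 entries hold one. The Sp5 entry held 2, and 1.43% of all entries hold at least 2. The 3 entries with a match are shown with the words in capitals, followed by Axin2, the most widely used readout of the pathway, whose 250 bases held none. A match describes letters only, and no binding was measured here.

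Sp5, chr2:70474673-70474922, plus strand: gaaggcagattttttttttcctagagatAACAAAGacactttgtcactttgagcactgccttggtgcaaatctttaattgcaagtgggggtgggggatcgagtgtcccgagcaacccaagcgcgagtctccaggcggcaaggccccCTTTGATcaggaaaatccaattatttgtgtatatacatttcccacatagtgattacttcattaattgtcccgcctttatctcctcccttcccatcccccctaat

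Lef1, start inside the gene, chr3:131156044-131156293, plus strand: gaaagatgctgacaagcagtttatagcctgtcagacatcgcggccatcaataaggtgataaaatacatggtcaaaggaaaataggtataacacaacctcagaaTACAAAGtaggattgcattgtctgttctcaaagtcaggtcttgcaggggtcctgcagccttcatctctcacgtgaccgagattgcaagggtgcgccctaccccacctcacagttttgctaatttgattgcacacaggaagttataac

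Wnt5b, start inside the gene, chr6:119449387-119449636, minus strand: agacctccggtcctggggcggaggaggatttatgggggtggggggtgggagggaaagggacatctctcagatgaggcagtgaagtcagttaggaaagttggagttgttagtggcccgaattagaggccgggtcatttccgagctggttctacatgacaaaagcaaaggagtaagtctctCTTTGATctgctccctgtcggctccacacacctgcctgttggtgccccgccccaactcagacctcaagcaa

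Axin2, chr11:108920099-108920348, plus strand: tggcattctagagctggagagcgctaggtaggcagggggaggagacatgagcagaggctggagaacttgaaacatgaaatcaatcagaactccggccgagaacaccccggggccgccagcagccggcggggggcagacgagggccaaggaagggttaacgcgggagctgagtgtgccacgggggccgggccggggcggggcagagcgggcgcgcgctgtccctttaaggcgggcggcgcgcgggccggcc

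The words in Sp5 begin 222 and 104 bases before the start, the word in Lef1 147 bases and the word in Wnt5b 71 bases before it. Of these genes, Wnt5b, Lef1 and Axin2 were lower in d5FS than in d0 by the test described next, and Sp5 did not pass the thresholds.

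**Figure D1:**
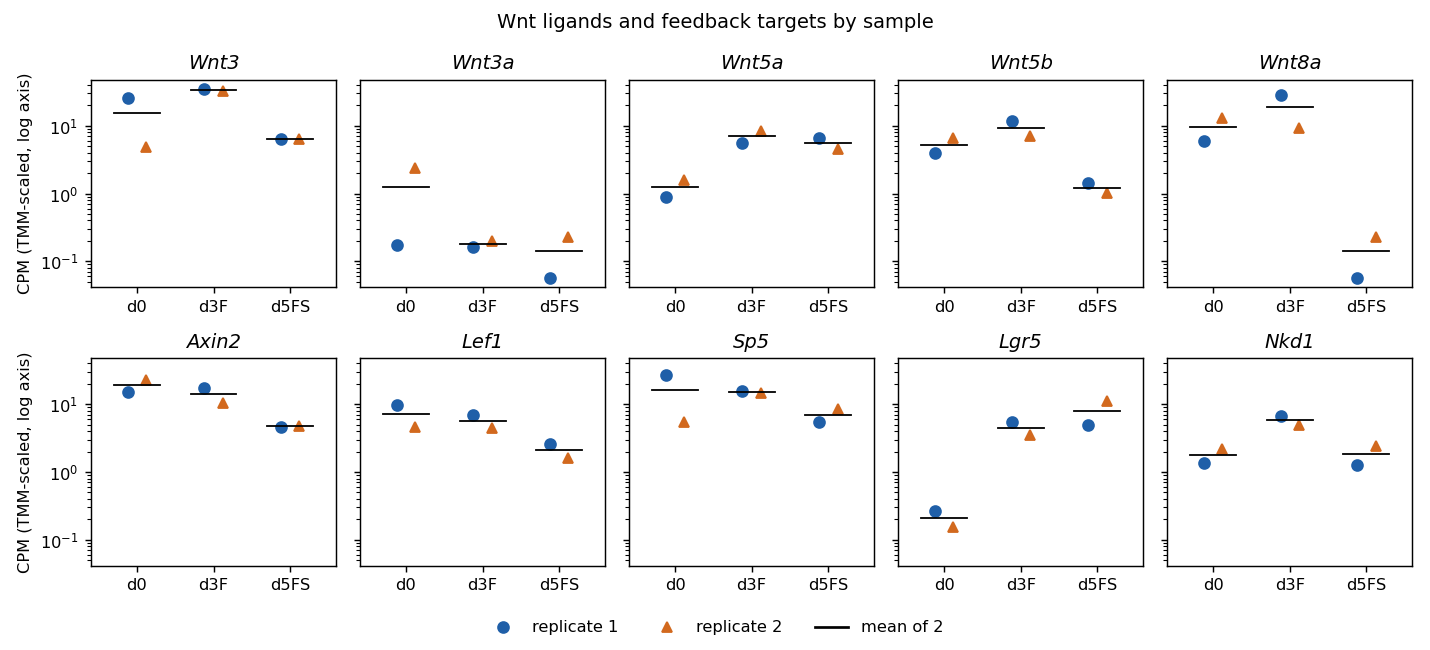
Level of each of the 10 Wnt genes in every sample, as TMM-scaled CPM on a log axis, for d0, d3F and d5FS. Circles are replicate 1, triangles replicate 2 and bars the mean of 2; Wnt8a drops to 0.0567 and 0.229 CPM in d5FS, Lgr5 starts from 0.263 and 0.154 CPM in d0, and the d0 replicates of Wnt3, Wnt3a and Sp5 lie far apart.

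Differences were tested over 14539 genes with the quasi-likelihood test of edgeR, and a gene was called where its p, adjusted by Benjamini-Hochberg, was under 0.05 and its absolute log2 fold change above 1. From d0 to d3F, 2 of the 9 tested Wnt genes were called, both higher (Lgr5 and Wnt5a), beside 4.7% of all genes in either direction, 2.8% higher and 1.9% lower. From d3F to d5FS, 2 were called, both lower (Wnt8a and Wnt5b), beside 1.54% of all genes, 1.08% higher and 0.461% lower. From d0 to d5FS, 6 were called, with Lgr5 and Wnt5a higher and Wnt8a, Wnt5b, Axin2 and Lef1 lower, beside 22.8% of all genes, 12.4% higher and 10.4% lower. The comparisons share samples, so their counts are not independent. The median log2 fold change of the 9 genes was 0.98, -1.58 and -1.25 in this order, against -0.01, 0.01 and 0.02 over all tested genes. The ranges of both populations did not overlap for 5, 7 and 6 of the 9 genes, beside 51%, 52.2% and 62.7% of all genes. The difference between these shares was not tested.

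**Figure D2:**
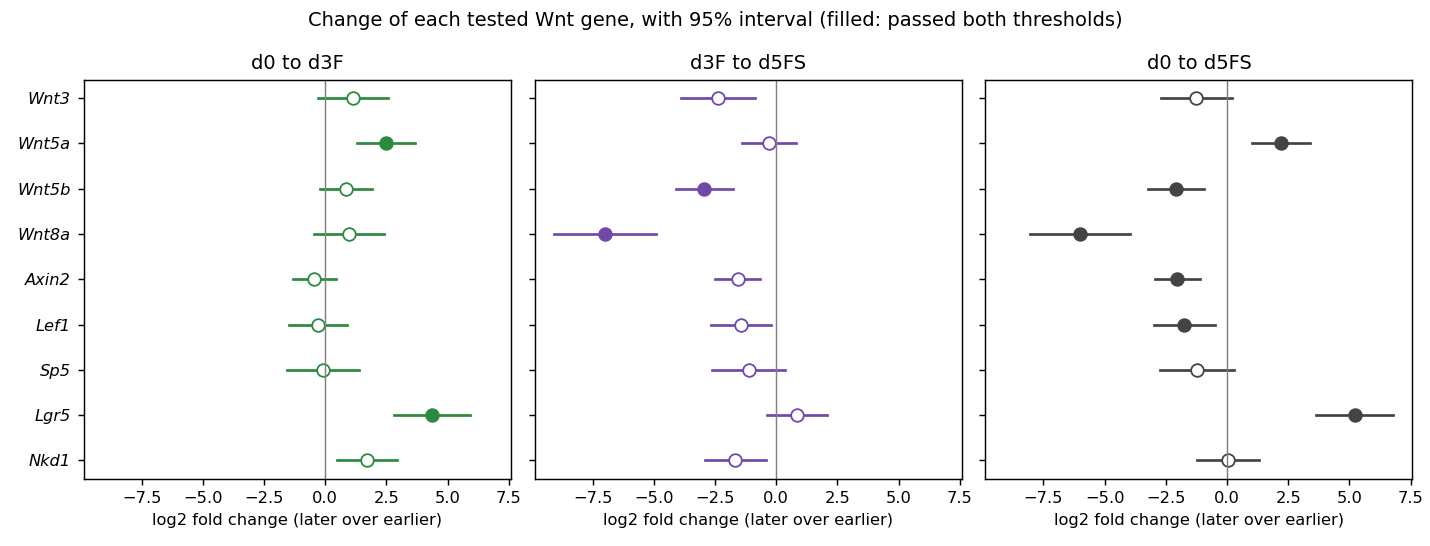
Log2 fold change (later over earlier population) of each of the 9 tested Wnt genes in the 3 comparisons, from the edgeR fit over all 6 samples. Lines are 95% intervals and filled points passed both thresholds: Wnt5a and Lgr5 from d0 to d3F, Wnt5b and Wnt8a from d3F to d5FS, and Wnt5a, Wnt5b, Wnt8a, Axin2, Lef1 and Lgr5 from d0 to d5FS.

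Among the ligands, Wnt8a showed the steepest fall. Wnt8a is a ligand of the beta-catenin branch that is expressed around the primitive streak. It reached 5.97 and 13.2 CPM in the d0 replicates, then 28.6 and 9.20 in d3F and 0.0567 and 0.229 in d5FS, where it was counted only 1 and 4 times. Both d5FS libraries thus lay far below all d0 and d3F libraries, while one d3F replicate lay within the d0 range and the other above it. Wnt8a fell from d3F to d5FS by 6.99 on the log2 scale (SE 0.91, edgeR quasi-likelihood adjusted p = 0.0174) and by 6.01 from d0 to d5FS (SE 0.90, adjusted p = 0.00441). With so few counts the size of this change is uncertain, and its 95% interval from d3F to d5FS runs from -9.08 to -4.90. The difference from d0 to d3F was 0.98 (95% interval -0.45 to 2.42, adjusted p = 0.442). The fall from d0 to d5FS was called in all 6 fits that left out a library. That from d3F to d5FS was not called without d3F replicate 1 (-5.96, edgeR adjusted p = 0.109), without d5FS replicate 1 (-6.34, adjusted p = 0.122) or without d5FS replicate 2 (-8.24, adjusted p = 0.0897).

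Wnt5b, a ligand that acts largely outside the beta-catenin branch, was also lowest in d5FS. Its levels were 3.95 and 6.51 CPM in d0, then 11.6 and 7.17 in d3F and 1.42 and 1.03 in d5FS. No population overlapped another, with d3F highest and d5FS lowest. Wnt5b fell from d3F to d5FS by 2.93 on the log2 scale (SE 0.51, edgeR adjusted p = 0.0376) and by 2.09 from d0 to d5FS (SE 0.50, adjusted p = 0.0222). The difference of 0.84 from d0 to d3F did not pass the test (95% interval -0.22 to 1.91, adjusted p = 0.366). The call from d3F to d5FS was lost without d3F replicate 1 (-2.56, edgeR adjusted p = 0.253), d3F replicate 2 (-3.24, 0.0635), d5FS replicate 1 (-3.19, 0.173) or d5FS replicate 2 (-2.72, 0.176). That from d0 to d5FS was lost without d0 replicate 2 (-1.67, adjusted p = 0.0760), d5FS replicate 1 (-2.34, 0.0883) or d5FS replicate 2 (-1.87, 0.108).

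Wnt5a went the other way from its close relative Wnt5b. Wnt5a directs cell polarity and migration, mostly without beta-catenin. It was at 0.877 and 1.59 CPM in d0, then 5.60 and 8.29 in d3F and 6.69 and 4.59 in d5FS. All d3F and d5FS libraries lay above both d0 libraries, and d3F and d5FS overlapped. Wnt5a rose from d0 to d3F by 2.49 on the log2 scale (SE 0.52, edgeR adjusted p = 0.0348) and was higher by 2.19 in d5FS than in d0 (SE 0.52, adjusted p = 0.0201). From d3F to d5FS it differed by -0.30 (95% interval -1.40 to 0.80, adjusted p = 0.79). The d0 to d3F call was held in 0 of the 6 fits that left out a library, whose log2 fold changes ranged from 2.12 to 2.99 and edgeR adjusted p from 0.0574 to 0.221. The d0 to d5FS call was lost without d0 replicate 1 (1.81, adjusted p = 0.0605) and without d5FS replicate 1 (1.89, adjusted p = 0.109). Fibroblasts also express Wnt5a, and the study thawed the ESCs on fibroblast feeders before it passaged them on gelatine. The summed level of 7 feeder fibroblast markers was 1.57 and 1.60 TPM on the common scale in d0, then 3.25 and 7.05 in d3F and 21.5 and 17.1 in d5FS. This sum was higher in each later population, whereas Wnt5a overlapped between d3F and d5FS. From d0 to d5FS 4 of the 6 tested markers were called, all higher (Col1a1, Col1a2, Col3a1 and Postn), beside 12.4% of all genes called higher. Thy1 went the other way from d0 to d5FS, without overlap but not called (-1.62, edgeR adjusted p = 0.245). Dcn differed by 0.47 (adjusted p = 0.738). Over the 6 samples Thy1 lay between 0.152 and 3.07 CPM and Dcn between 0.103 and 0.745. Lum, which was not tested, reached at most 0.0505. The part of such cells in the Wnt5a level was not tested.

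Wnt3, the ligand needed to form the primitive streak, passed the test in no comparison. Its levels were 25.7 and 4.92 CPM in d0, then 34.5 and 32.9 in d3F and 6.47 and 6.42 in d5FS. The d3F replicates were nearly equal, as were the d5FS replicates, and both d3F libraries lay above all others, while the d0 replicates lay on either side of the d5FS level. From d0 to d3F its log2 fold change was 1.13 (95% interval -0.30 to 2.57, edgeR adjusted p = 0.366), -2.38 from d3F to d5FS (-3.89 to -0.88, adjusted p = 0.115) and -1.25 from d0 to d5FS (-2.72 to 0.21, adjusted p = 0.186). Each of these calls changed when a d0 library was left out. Without d0 replicate 1, Wnt3 was higher in d3F than in d0 by 2.77 (edgeR adjusted p = 0.0111) and differed by 0.38 from d0 to d5FS (adjusted p = 0.531). Without d0 replicate 2, it was lower in d5FS than in d0, at -1.99 (adjusted p = 0.0132). The difference from d3F to d5FS passed the test without d0 replicate 1 (-2.40, edgeR adjusted p = 0.00816) or d0 replicate 2 (-2.39, adjusted p = 0.00837). It also passed in a fit of d3F and d5FS alone (-2.37, edgeR adjusted p = 0.00942) and in the DESeq2 Wald test (-2.38, adjusted p = 0.00368).

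Wnt3a, the ligand that was also added to the medium as protein, was the lowest of the ligands in mRNA level in d3F and d5FS by TPM. It was counted 4 and 46 times in d0, then 4 and 4 times in d3F and 1 and 4 times in d5FS, or 0.175 and 2.36, 0.162 and 0.202, and 0.0567 and 0.229 CPM. Only d0 replicate 2 stood above the rest. The filter on low counts removed the gene from the test. Without that filter it was called lower in d5FS than in d0 (-3.08, edgeR adjusted p = 0.0174) but not in d3F (-2.72, adjusted p = 0.0575). With d0 replicate 1 left out, and so 46 counts as the only d0 value, it was called lower than d0 in d3F (-3.66, adjusted p = 0.0485) and in d5FS (adjusted p = 0.0214). It was not called in the fits that left out a d3F or d5FS library. These fold changes rest on 1 to 4 counts in each later library.

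Lgr5 rose most among the target genes. It encodes a receptor for R-spondins, secreted proteins that strengthen Wnt signals, and it is a target of beta-catenin and Tcf in intestinal stem cells. Lgr5 was counted 6 and 3 times in d0, or 0.263 and 0.154 CPM, against 5.44 and 3.49 CPM in d3F and 4.94 and 11.1 CPM in d5FS. Every d3F and d5FS library lay above both d0 libraries. Lgr5 rose from d0 to d3F by 4.37 on the log2 scale (SE 0.67, edgeR adjusted p = 0.0144) and was higher by 5.21 in d5FS than in d0 (SE 0.69, adjusted p = 0.00317). The ranges of d3F and d5FS overlapped, with a difference of 0.84 (95% interval -0.38 to 2.07, adjusted p = 0.447). The d0 to d5FS call held in all 6 fits that left out a library (4.52 to 5.68). The d0 to d3F call was lost only without d0 replicate 2 (4.07, edgeR adjusted p = 0.0527).

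Axin2 and Lef1, both direct beta-catenin targets, ended lower than they began. Axin2 is a scaffold of the complex that degrades beta-catenin and so limits the signal. It stood at 15.3 and 23.0 CPM in d0, then 17.6 and 10.5 in d3F and 4.65 and 4.76 in d5FS. The d5FS replicates agreed closely and lay below all other libraries, while d0 and d3F overlapped. Axin2 fell from d0 to d5FS by 2.02 on the log2 scale (SE 0.41, edgeR adjusted p = 0.0121). Its steps were -0.45 from d0 to d3F (95% interval -1.34 to 0.44, adjusted p = 0.593) and -1.58 from d3F to d5FS (-2.50 to -0.65, adjusted p = 0.0958), and neither passed. In the DESeq2 Wald test the later step did pass (-1.57, adjusted p = 0.0113). The d0 to d5FS call was lost without d5FS replicate 1 (-2.01, edgeR adjusted p = 0.0756) or d5FS replicate 2 (-2.03, adjusted p = 0.0605).

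Lef1, a nuclear partner through which beta-catenin activates genes, had 9.61 and 4.56 CPM in d0, then 6.98 and 4.50 in d3F and 2.61 and 1.60 in d5FS. Again both d5FS libraries were below all others and d0 overlapped d3F. Lef1 fell from d0 to d5FS by 1.75 on the log2 scale (SE 0.54, edgeR adjusted p = 0.0499), at the edge of the threshold. This call was held in only 1 of the 6 fits that left out a library, the one without d0 replicate 2. In the other fits the log2 fold change was -1.12 without d0 replicate 1, -1.75 without d3F replicate 1, -1.74 without d3F replicate 2, -2.14 without d5FS replicate 1 and -1.43 without d5FS replicate 2, with edgeR adjusted p from 0.0714 to 0.199. Its differences of -0.30 from d0 to d3F (95% interval -1.49 to 0.88, edgeR adjusted p = 0.807) and -1.44 from d3F to d5FS (-2.68 to -0.21, adjusted p = 0.211) did not pass.

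Sp5, a zinc finger factor induced by Wnt signals that in turn restrains other Wnt targets, passed in no comparison. It was at 27.2 and 5.38 CPM in d0, then 15.6 and 14.8 in d3F and 5.45 and 8.43 in d5FS. The highest library was d0 replicate 1. As for Wnt3, d0 replicate 1 lay above both d5FS libraries and d0 replicate 2 below both. The log2 fold changes were -0.11 (95% interval -1.58 to 1.36, edgeR adjusted p = 0.959), -1.13 (-2.63 to 0.38, adjusted p = 0.409) and -1.23 (-2.74 to 0.27, adjusted p = 0.202) from d0 to d3F, d3F to d5FS and d0 to d5FS. Without d0 replicate 1 the first and last became 1.49 (adjusted p = 0.107) and 0.35 (adjusted p = 0.616), and without d0 replicate 2 Sp5 was lower in d5FS than in d0, at -1.97 (adjusted p = 0.0193). The direction of both comparisons with d0 therefore depended on which d0 library was kept.

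Nkd1, an inhibitor that binds Dishevelled and is itself induced by Wnt signals, was highest in both d3F libraries. Its levels were 1.36 and 2.20 CPM in d0, then 6.70 and 4.90 in d3F and 1.25 and 2.41 in d5FS. The d3F range overlapped neither of the others, and d0 and d5FS lay at the same level. The log2 fold changes were 1.70 (95% interval 0.47 to 2.94, edgeR adjusted p = 0.114), -1.66 (-2.91 to -0.42, adjusted p = 0.163) and 0.04 (-1.21 to 1.29, adjusted p = 0.966), so none passed after adjustment over all genes. Without the filter on low counts the first did pass (1.73, edgeR adjusted p = 0.0339).

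**Figure D3:**
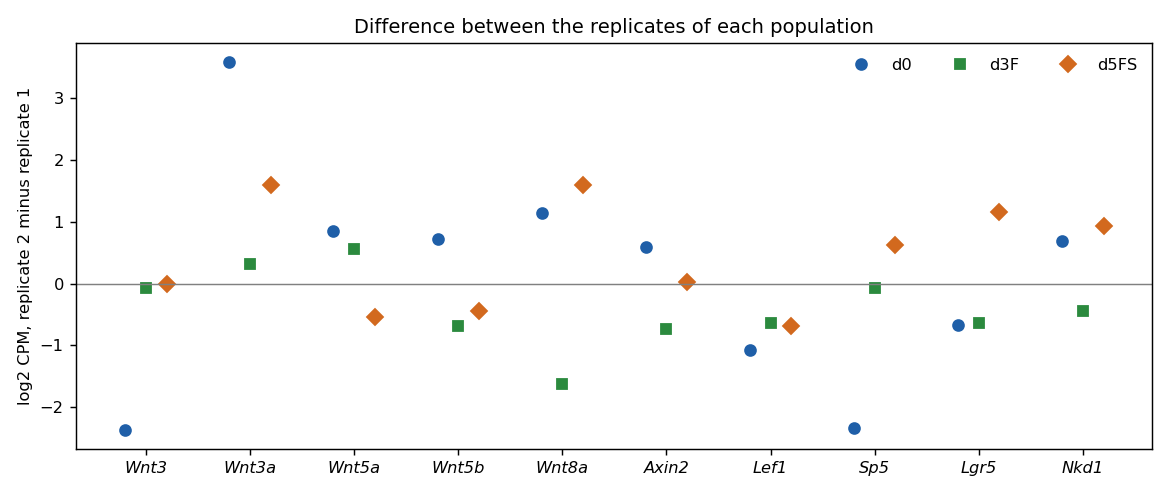
Difference between replicates of the same population for the 10 Wnt genes, as log2 CPM of replicate 2 minus replicate 1. Wnt3 (-2.38) and Sp5 (-2.33) in d0 lie far below 0 and Wnt3a in d0 (3.59) far above it, while the d3F and d5FS points of Wnt3 lie near 0.

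The spread between replicates differed from gene to gene. In d0 the log2 difference of replicate 2 from replicate 1 was -2.38 for Wnt3, -2.33 for Sp5 and -1.07 for Lef1, and it was 1.14 for Wnt8a and 3.59 for Wnt3a. Wnt3, Sp5, Lef1 and T were thus higher in the d0 library that also held less Nanog, as was Lgr5 (-0.67). The other d0 library was higher in Wnt3a and Wnt8a, and in Wnt5a (0.84), Wnt5b (0.72), Nkd1 (0.69) and Axin2 (0.59). In d3F the widest difference was that of Wnt8a, at -1.63. In d5FS the differences of Wnt8a and Wnt3a were 1.60 each but rest on 1 against 4 counts, and that of Lgr5 was 1.17. In the study's sample list, RNA-seq libraries of the same population carry either mRNA or totRNA in their names, with no replicate number, and the part of that difference was not tested. Replication-dependent histone mRNAs, which lack a poly(A) tail, were higher in replicate 2 of every population, with summed levels of 14297 and 24377 TPM in d0, then 13261 and 16937 in d3F and 4977 and 11443 in d5FS on the common scale.

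Levels were compared between genes by deposited TPM, which corrects for transcript length, with the order read within each population. In d0, Sp5 had the highest mean at 5.14 TPM, though its replicates were at 9.41 and 0.87. Wnt3 (3.15 TPM), Wnt8a (3.02), Axin2 (2.11), Lef1 (1.42) and Wnt5b (1.16) followed, and Nkd1, Wnt3a, Wnt5a and Lgr5 were at 0.195, 0.165, 0.145 and 0.025 TPM. With TPM on the common scale Wnt8a (3.05) came before Wnt3 (2.21), Wnt5b (1.11) before Lef1 (1.09) and Wnt3a (0.208) before Nkd1 (0.182), and the rest of the d0 order was kept. The neighbours in the order by deposited TPM that did not overlap were Wnt8a and Axin2, Wnt5b and Nkd1, and Wnt5a and Lgr5. In d3F the mean ran from 8.71 TPM for Wnt8a and 6.26 for Wnt3 over Sp5 (4.33), Wnt5b (2.66), Axin2 (1.98) and Lef1 (1.12) to Wnt5a (0.91), Nkd1 (0.79), Lgr5 (0.56) and Wnt3a (0.035), and the last neighbours alone did not overlap. In d5FS, Sp5 led again with 1.32 and 1.31 TPM in its replicates, ahead of Wnt3 (mean 0.835) and without overlap. Lgr5 (0.615 TPM) and Wnt5a (0.56) came next, having been last in d0, while Axin2 (0.44), Lef1 (0.27), Wnt5b (0.235) and Nkd1 (0.155) came before Wnt8a and Wnt3a, at 0.035 and 0.02 TPM. Nkd1 and Wnt8a did not overlap, and the other neighbours in d5FS did. A few small non-coding RNAs (121 genes) took 52.4% to 75.7% of all TPM per sample, so TPM levels were not compared across populations. On the common scale the orders in d3F and d5FS were those given here.

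For the 6 Wnt genes that were called, the genes with the most similar profiles over the 6 samples were found by the root mean square difference of centred log2 CPM. Samples share their library and depth, so these distances are descriptions. Nearest to Axin2 were Sox13 (0.18), a Sox family transcription factor, Slc46a1 (0.19), a folate transporter, and Set (0.20). Nearest to Lef1 were Dusp6 (0.15), a phosphatase that switches off ERK kinases, Sfmbt1 (0.15) and Ptprn (0.17). Wnt5a was nearest to Cgnl1 (0.18), a junction protein gene, Slit2 (0.26), a secreted guidance cue, and Ropn1l (0.28). Wnt5b was nearest to Acnat1 (0.25), Xlr (0.33) and the Wnt receptor gene Fzd10 (0.33). Lgr5 was nearest to the Ets factor gene Ehf (0.37), Pkdcc (0.38) and Chst15 (0.46). Wnt8a had the loosest neighbours, Fam19a4 (0.34), Ccno (0.73) and H2-Q8 (0.82).

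The rest of the pathway was described from lists of its parts. Of 14 other Wnt ligand genes, 11 were tested. Wnt11, a ligand of the polarity branch, was at 0.526 and 1.03 CPM in d0, then 16.2 and 19.6 in d3F and 70.3 and 54.8 in d5FS, and its 3 populations lay in ascending order without overlap, an order that Wnt3, Wnt3a, Wnt5a, Wnt5b and Wnt8a did not show. It was called from d0 to d3F (4.53, SE 0.43, edgeR adjusted p = 0.00414) and from d0 to d5FS (6.34, SE 0.46, adjusted p = 0.000916). Both calls held in all 6 fits that left out a library. Wnt2 was the only other one called, from d0 to d3F (4.87, SE 1.05, edgeR adjusted p = 0.0397), beside 2.8% of all genes called higher. Its d3F replicates were as far apart as 4.34 and 25.5 CPM. Its call was lost without d0 replicate 2 (4.08, edgeR adjusted p = 0.103), d3F replicate 2 (3.12, 0.270), d5FS replicate 1 (4.88, 0.0719) or d5FS replicate 2 (4.89, 0.0756). From d3F to d5FS edgeR called 0 of the 11, with 4 at an unadjusted p under 0.05 and 4 called by the DESeq2 Wald test. Without d0 replicate 1 or d0 replicate 2 edgeR called 3 there (Wnt2 lower, Wnt9a and Wnt11 higher), and without d0 replicate 1 it called 3 from d0 to d5FS, with Wnt9a (2.92) and Wnt10b (3.85) higher besides Wnt11. Of the secretion genes, Wls, which carries Wnt proteins to the cell surface, was higher in d3F than in d0 (2.42, edgeR adjusted p = 0.0322) and in d5FS than in d0 (2.75, adjusted p = 0.0082), and Porcn was not called. The first Wls call was lost without d0 replicate 2 (2.13, edgeR adjusted p = 0.126), d3F replicate 2 (1.55, 0.194), d5FS replicate 1 (2.43, 0.0568) or d5FS replicate 2 (2.43, 0.0602), and without d0 replicate 2 Porcn was called higher in d5FS than in d0 (2.32, adjusted p = 0.0226).

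The Frizzled receptor genes differed in direction. From d0 to d5FS 7 of the 10 were called, 5 higher and 2 lower, beside 22.8% of all genes, 12.4% higher and 10.4% lower. The median log2 fold change was 1.60 against 0.02 over all tested genes. Fzd5 had 33.0 and 42.7 CPM in d0, then 67.2 and 79.4 in d3F and 486 and 574 in d5FS, and rose by 2.85 from d3F to d5FS (SE 0.31, edgeR adjusted p = 0.013). Fzd10 ran alongside Wnt5b, with 18.5 and 27.0 CPM in d0, then 27.7 and 25.6 in d3F and 3.86 and 3.50 in d5FS, and fell by 2.86 from d3F to d5FS (SE 0.35, adjusted p = 0.016). Fzd8 (4.21), Fzd7 (2.07), Fzd2 (1.74) and Fzd6 (1.5) were higher in d5FS than in d0 and Fzd9 lower (-3.39) on the log2 scale. Only Fzd2 (1.70) and Fzd8 (3.24) were called from d0 to d3F, beside 2.8% of all genes called higher. Fzd5 and Fzd10 alone were called from d3F to d5FS, beside 1.54% of all genes in either direction. When d0 replicate 1 was left out, Fzd6 was also called from d0 to d3F (2.17) and Fzd3 from d0 to d5FS (2.06), which gave 3 and 8 genes. Without d0 replicate 2, Fzd2 (1.44, edgeR adjusted p = 0.103) and Fzd8 (2.90, 0.0572) from d0 to d3F and Fzd6 from d0 to d5FS (1.04, 0.152) were not called, which left 0 and 6. Of the other calls, Fzd2 from d0 to d3F was lost without d3F replicate 1 (1.80) or 2 (1.62), Fzd8 without d3F replicate 2 (2.82), and Fzd9 without d5FS replicate 1 (-2.90). From d3F to d5FS, Fzd5 was not called without d3F replicate 1 (2.72) or d5FS replicate 2 (2.73), nor Fzd10 without d3F replicate 1 (-2.81), d5FS replicate 1 (-2.94) or d5FS replicate 2 (-2.79). Fzd6 from d0 to d5FS was held in 1 of the 6 fits that left out a library, the one without d0 replicate 1, and Fzd2, Fzd5, Fzd7, Fzd8 and Fzd10 in all 6.

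**Figure D4:**
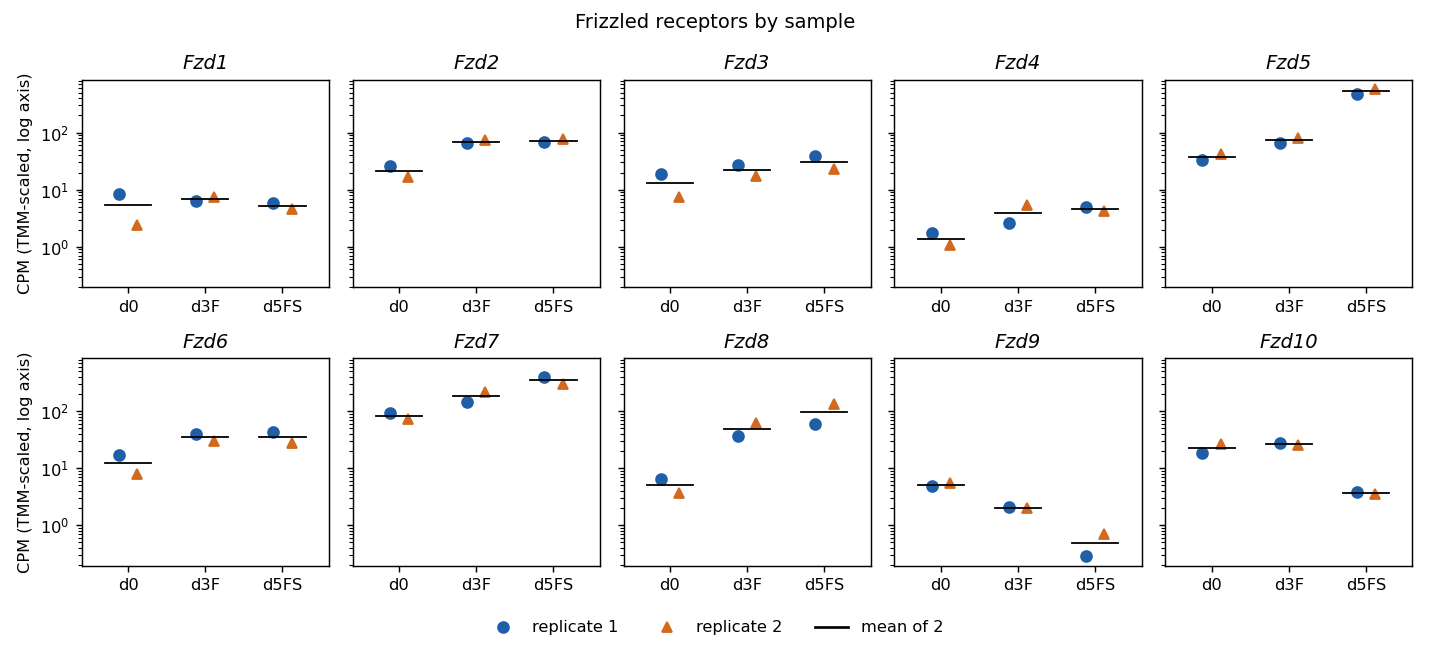
Level of the 10 Frizzled receptor genes in every sample, as TMM-scaled CPM on a log axis, for d0, d3F and d5FS. Circles are replicate 1, triangles replicate 2 and bars the mean of 2; Fzd5 rises to 486 and 574 CPM in d5FS and Fzd10 drops to 3.86 and 3.50 CPM.

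The cytoplasmic cascade showed no call. Of 9 genes for Dishevelled, Axin1, Apc, the kinases and beta-catenin, edgeR called 0 in all 3 comparisons, with 0, 0 and 1 at an unadjusted p under 0.05 and 0 by the DESeq2 Wald test. Ctnnb1, which encodes beta-catenin, ranged from 782 to 1177 CPM over the 6 samples. Of the 6 co-receptor genes, Lrp5 alone was called, from d0 to d5FS (1.00, edgeR adjusted p = 0.0436), a call held in 0 of the 6 fits that left out a library. Of the 6 tested genes of the R-spondin module, Rnf43, which removes Frizzled from the membrane, was higher (1.85, adjusted p = 0.0383) and Rspo1 lower (-2.39, adjusted p = 0.0429) in d5FS than in d0, and Lgr6, Rspo3 and Znrf3 were not called. Neither the Rnf43 nor the Rspo1 call was held in any of the 6 fits that left out a library, with 2.22 and -2.46 without d0 replicate 1 and 1.56 and -2.31 without d0 replicate 2. Rspo3 was, without d0 replicate 1, called higher in d3F (3.75) and in d5FS (1.88) than in d0, and Ror1, a co-receptor gene, higher in d5FS than in d0 (2.23). Without either d0 library Rspo3 was called lower from d3F to d5FS (-1.88 and -1.87). In the first and second comparison edgeR called 0 of either list, with 2 and 0 co-receptor genes and 2 and 2 R-spondin module genes at an unadjusted p under 0.05, and with 1 and 0 and 1 and 1 called by the DESeq2 Wald test. Lgr4, the relative of Lgr5, was not called and lay between 67.4 and 199 CPM. Of 7 genes for other Tcf factors and coactivators, Tcf7l2 (3.04, adjusted p = 0.0307) and Bcl9l (1.54, adjusted p = 0.0256) were higher in d5FS than in d0, where Lef1 was lower. Tcf7l2 had 5.66 and 0.564 CPM in its d0 replicates, and its call was lost without d5FS replicate 1 (2.94, edgeR adjusted p = 0.113) or d5FS replicate 2 (3.14, 0.0818). That of Bcl9l was lost without d0 replicate 2 (1.22, edgeR adjusted p = 0.0918), d5FS replicate 1 (1.51, 0.107) or d5FS replicate 2 (1.57, 0.0806). Without d0 replicate 1, Tcf7l2 was also called from d0 to d3F (3.65), and without either d0 library from d3F to d5FS (1.84 and 1.85). In the first and second comparison edgeR called 0 of the 7, with 0 and 1 at an unadjusted p under 0.05 and 0 by the DESeq2 Wald test.

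Of the other Wnt targets, 6 of 12 were called from d0 to d5FS, all lower like Axin2 and Lef1, beside 10.4% of all genes called lower. Nkd2, Apcdd1, Sp8, T, Myc and Bambi did not pass. Of these, Bambi (1.32, edgeR adjusted p = 0.0535) and Apcdd1 (1.14, 0.128) went the other way, both without overlap, and Nkd2, Sp8, T and Myc had negative fold changes. The count was 5 without d0 replicate 1, where Cdx4 was lost, and 3 without d0 replicate 2, where Notum (edgeR adjusted p = 0.125), Cdx1 (0.248) and Cdx2 (0.0770) were lost. From d0 to d3F T alone was called, beside 2.8% of all genes called higher. Notum (-3.95) and Cdx1 (-5.76) were also called lower there without d0 replicate 1. Ccnd1, the cell cycle gene for cyclin D1, had 158 and 127 CPM in d0, then 109 and 81.8 in d3F and 14.3 and 10.1 in d5FS, and fell by 3.55 from d0 to d5FS (SE 0.34, edgeR adjusted p = 0.00158). Tnfrsf19 (-3.29), Notum (-3.61), Cdx1 (-4.86), Cdx2 (-2.96) and Cdx4 were the others, although Cdx1 had 0.921 and 16.0 CPM in its d0 replicates and Cdx4 was counted at most once in a d5FS library, so no fold change is given for it. Notum, Cdx1, Cdx2 and Cdx4 were also lost without d5FS replicate 1 or without d5FS replicate 2, while Ccnd1 and Tnfrsf19 were called from d0 to d5FS in all 6 fits. From d3F to d5FS 3 of the 12 were called, all lower, beside 0.461% of all genes. These were T, Ccnd1 (-2.97, edgeR adjusted p = 0.013) and Tnfrsf19 (-2.99, 0.0286). Ccnd1 and Tnfrsf19 lost this call without d3F replicate 1 (-2.76 and -2.38), d5FS replicate 1 (-3.26 and -3.33) or d5FS replicate 2 (-2.74 and -2.73). T, which is also a mesendoderm marker, peaked in d3F like Nkd1, at 169 and 69.1 CPM against 19.8 and 5.13 in d0 and 8.51 and 3.27 in d5FS. It was called higher from d0 to d3F (3.25, edgeR adjusted p = 0.0487) and lower from d3F to d5FS (-4.34, adjusted p = 0.0437), both close to the threshold. The first call was held in 1 of the 6 fits that left out a library, the one without d0 replicate 1, and was lost without d0 replicate 2 (2.61, edgeR adjusted p = 0.121), d3F replicate 1 (2.48, 0.161), d3F replicate 2 (3.77, 0.0795), d5FS replicate 1 (3.27, 0.0595) or d5FS replicate 2 (3.26, 0.0632). The second was lost without d3F replicate 1 (-3.56, adjusted p = 0.192), d5FS replicate 1 (-5.20, 0.152) or d5FS replicate 2 (-3.81, 0.183).

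Secreted Wnt antagonists were mostly higher later. Of 9 tested, 7 were called from d0 to d5FS, with Dkk1 (7.05), Sfrp1 (4.11), Sfrp5 (7.52), Frzb (4.47) and Cer1 (8.56) higher and Sfrp2 (-3.06) and Sfrp4 (-2.83) lower on the log2 scale, beside 12.4% and 10.4% of all genes. The calls of Dkk1, Sfrp1, Sfrp5, Frzb and Cer1 held in all 6 fits that left out a library, that of Sfrp4 in 0, and that of Sfrp2 was lost without d0 replicate 1 (-2.28), d5FS replicate 1 (-3.05) or d5FS replicate 2 (-3.05). Dkk1, which blocks Lrp5 and Lrp6, was at 0.175 and 1.23 CPM in d0, then 9.62 and 25.0 in d3F and 39.7 and 143 in d5FS. Sfrp1, which binds Wnt proteins, was at 15.4 and 12.8, 73.2 and 140, and 215 and 274 CPM. In both, each population lay above the one before it. Cer1 is also counted among the endoderm markers. From d0 to d3F 4 of the 9 were called, all higher (Dkk1, Sfrp1, Frzb and Cer1), beside 2.8% of all genes. Of these Dkk1 was lost without d0 replicate 1 (3.81, edgeR adjusted p = 0.0534) or d3F replicate 2 (3.81, 0.140). From d3F to d5FS Cer1 alone was called (2.75, edgeR adjusted p = 0.0242), beside 1.08% of all genes called higher. In that comparison 5 of the 9 had an unadjusted p under 0.05 and 4 were called by the DESeq2 Wald test. The Cer1 call was lost without d3F replicate 1 (edgeR adjusted p = 0.228), d3F replicate 2 (0.0872), d5FS replicate 1 (0.0778) or d5FS replicate 2 (0.105). Sfrp5 was also called there without d0 replicate 1 (3.74), d0 replicate 2 (3.75) or d3F replicate 2 (5.67), and from d0 to d3F without d3F replicate 1 (4.57). Dkk1, Sfrp1, Sfrp5 and Cer1 were highest in the d5FS libraries, the same ones in which Wnt8a, Wnt5b, Axin2 and Lef1 were lowest. Frzb overlapped between d3F and d5FS, and Sfrp2 and Sfrp4 were lower in d5FS than in d0. Lgr5 and Wnt5a were higher in d5FS than in d0. A link between antagonists and the Wnt genes was not tested.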

How the data were processed

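RNA-seq of 6 samples was analysed, 2 replicates each of d0, d3F and d5FS, grouped by the sample labels. The authors depleted ribosomal RNA (Ribo-Zero), prepared TruSeq V2 libraries and sequenced paired ends. Reads were aligned to mm10 (GRCm38) with STAR and quantified with RSEM, per the labels. The versions and the gene annotation are not given in the sources used here. The deposited expected counts are RSEM estimates, not normalized. At most 7.62% of genes per sample had a fractional count, and the counts of the 10 Wnt genes were all whole. The deposited TPM values are corrected for effective length by RSEM. They served for the order of genes, and with TMM factors and the deposited effective lengths for summed marker levels (the common scale). FPKM was not used.

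Expected counts were rounded. With edgeR 4.0.16 (R 4.3.3), genes were kept by filterByExpr, normalized by TMM and fitted by glmQLFit with a mean per population over all 6 samples (3 residual degrees of freedom), then tested by glmQLFTest with Benjamini-Hochberg adjustment. CPM values are TMM-scaled. SE is the size of the log2 fold change over the root of F, and intervals are 95% with edgeR's moderated degrees of freedom. With 2 against 2 samples an exact permutation test cannot go below 0.33, so none was run. P-values measure the spread between these samples of 1 cell line, and counts cover counting error only.

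The 10 genes and the pathway and marker lists were chosen with earlier results of these data known. All 10 genes are named, and of the pathway lists genes called in a comparison, with the 3 nearest profiles of each called gene. A few other genes (Porcn, Wnt9a, Wnt10b, Fzd3, Ctnnb1, Lgr4, Lgr6, Rspo3, Znrf3, Ror1, Nkd2, Apcdd1, Sp8, Myc and Bambi) were named after their values were seen. Alternatives were DESeq2 1.42.0 size factors, its Wald test with the same limits or against a log2 fold change of 1 (the study's test), no filter on low counts, at least 1 CPM in 2 samples, a replicate block, only the populations compared, and each library left out. The fits of the lists and of Wnt3a with a library left out, those of the lists with DESeq2, and the order by TPM on the common scale were added after seeing the data. The test was checked on simulated counts. Gene positions are from GENCODE M21 and upstream sequences from RefSeq (GRCm38.p6).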

Additional observations from a re-analysis of the deposited data

How the results depend on the processing

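DESeq2 size factors in edgeR and a filter of at least 1 CPM in 2 samples changed no call among the Wnt genes. The DESeq2 Wald test called 1516 (d0 to d3F) and 1104 genes (d3F to d5FS), and in the latter 4 Wnt genes (Wnt3 and Axin2 besides Wnt5b and Wnt8a). Against a log2 fold change of 1 it called 384 and 1035 genes from d0 to d3F and d0 to d5FS, with 1 Wnt gene (Lgr5) and 2 (Lgr5 and Wnt8a). Without a filter on low counts edgeR called 1933 (d0 to d3F) and 1423 genes (d3F to d5FS), with 4 Wnt genes in the latter (Wnt3, Wnt5b, Wnt8a and Axin2), and Nkd1 from d0 to d3F and Wnt3, Wnt3a and Sp5 from d0 to d5FS were also called. With only the populations compared, 430 genes and 1 Wnt gene (Lgr5) were called from d0 to d3F and 529 genes from d3F to d5FS, and Lef1 from d0 to d5FS was not called. Leaving out each library gave 0 to 3 Wnt genes from d0 to d3F, 0 to 3 from d3F to d5FS and 2 to 7 from d0 to d5FS, and 97 to 977, 0 to 496 and 1047 to 3037 genes. Without d3F replicate 1, 0 genes were called from d3F to d5FS. Directions turned in some of these fits, none of them for a called difference, with log2 fold changes of -0.73 to 0.33 for Lef1, -0.83 to 1.49 for Sp5 and -0.049 to 1.68 for Wnt8a from d0 to d3F, -0.61 to 0.0039 for Wnt5a from d3F to d5FS, and -0.50 to 0.43 for Nkd1, -1.97 to 0.35 for Sp5 and -1.99 to 0.38 for Wnt3 from d0 to d5FS. The cause of these shifts was not tested. Over all alternatives 296 of the Wnt genes' fold changes kept direction and side of the threshold, 33 lost the call, 13 gained it and 9 turned direction. Scaling TPM by TMM moved 3 of the 30 levels by more than the spread between replicates.

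The replicate numbers of the labels are shared across populations, but nothing says that they mark a common batch, and only 2 pairs per comparison exist. Deviations of same-numbered samples correlated at 0.297 (d0 and d3F), 0.281 (d0 and d5FS) and 0.236 (d3F and d5FS) over 14539 genes. A fit with replicate as a block called 1320 genes (d0 to d3F) and 918 (d3F to d5FS), while 2, 2 and 6 Wnt genes were called, the same genes as without the block. The block turned the direction of Sp5 from d0 to d3F (0.076).

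Levels under 1 CPM limit what can be said of Wnt3a in all libraries but d0 replicate 2, of Wnt8a in d5FS and of Lgr5 in d0. Wnt5a was also under 1 CPM in d0 replicate 1.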
